A study of Mus musculus with 2 samples.

Results

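The myosin-binding and M-band genes are 8 genes that encode 2 families of related muscle proteins: Mybpc1, Mybpc2, Mybpc3, Mybph and Mybphl, which bind myosin, and the myomesins Myom1, Myom2 and Myom3. They were taken by symbol and are 8 of the 55536 annotated genes measured, with 31 annotated transcripts between them. Total RNA was sequenced from whole gastrocnemius, the large calf muscle, of 2 male mice aged 4 days. Both were B6CASTF1/J, the first-generation hybrid of C57BL/6J and CAST, and neither carried a treatment or an engineered allele in the labels. Each animal gave 1 library, for which 300 ng of RNA was used and ERCC control RNAs were added, and both belong to 1 group. Whole muscle holds nerve, vessel and connective tissue besides muscle fibres. With 1 library per animal, a difference of animal, dissection or library preparation cannot be told apart. No levels were tested against each other, because the smallest p of an exact two-sided sign-flip test over 2 libraries is 0.5. A value followed by ± is the mean and SD over both libraries (n = 2), and paired values are replicate 1 and then replicate 2.

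Thick filaments are bundles of myosin. Myosin-binding protein C lies in stripes along each filament, where it tethers myosin heads and touches the thin filament. Mybpc1 encodes its slow skeletal form, which fast fibres can also carry, Mybpc2 the fast skeletal form and Mybpc3 the cardiac form. Mybph encodes myosin-binding protein H, a shorter relative, and Mybphl a related protein known from the heart, mainly the atria. At the middle of the sarcomere, in the M-band, myomesins cross-link neighbouring thick filaments and bind titin. Myom1 encodes myomesin, present in all striated muscle, Myom2 encodes M-protein, known from fast fibres and heart, and Myom3 encodes a further member known from a subset of skeletal fibres.

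Annotated genes took 35281187 expected counts in replicate 1 and 32301531 in replicate 2. An expected count is a read count estimated where reads match several transcripts, and TPM is a relative abundance in which counts are divided by transcript length and then by the library sum. The 6 skeletal muscle markers (Acta1, Ckm, Myog, Ryr1, Cacna1s and Des) had summed levels of 19953 and 18549 TPM. Replicate 2 stood apart in 6 of 6 epidermis and hair follicle genes, which summed to 3.930 TPM in replicate 1 but to 716.4 TPM in replicate 2. The summed level of 3 Schwann cell genes was 233.2 and 519.9 TPM. The part of these cell types in the differences between libraries reported here was not tested, and the levels and family shares of the members are given for each library.

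The annotation places 6 coding exons that differ between transcripts in Mybpc1 and Myom1, and their sequences are shown because the transcript shares reported here turn on them. Sequences were read from the GENCODE M21 transcripts (GRCm38, the same build as mm10), 5′ to 3′ on the strand of the gene. Capitals mark the alternative exon and lower case the neighbouring transcript bases on each side.
Mybpc1 42-nt exon (chr10:88582007-88582048, minus strand, exon 3 of 29 in Mybpc1-202): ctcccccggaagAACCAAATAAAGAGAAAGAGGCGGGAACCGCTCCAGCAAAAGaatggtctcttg
Mybpc1 54-nt exon (chr10:88537466-88537519, minus strand, exon 9 of 14 in Mybpc1-206): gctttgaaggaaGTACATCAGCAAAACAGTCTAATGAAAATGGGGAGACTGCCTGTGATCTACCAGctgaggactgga
Mybpc1 59-nt exon (chr10:88521277-88521335, minus strand, exon 27 of 29 in Mybpc1-201): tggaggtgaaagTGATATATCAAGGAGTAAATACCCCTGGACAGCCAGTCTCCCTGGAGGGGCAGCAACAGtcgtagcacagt
Myom1 294-nt exon (chr17:71082203-71082496, plus strand, exon 18 of 38 in Myom1-202): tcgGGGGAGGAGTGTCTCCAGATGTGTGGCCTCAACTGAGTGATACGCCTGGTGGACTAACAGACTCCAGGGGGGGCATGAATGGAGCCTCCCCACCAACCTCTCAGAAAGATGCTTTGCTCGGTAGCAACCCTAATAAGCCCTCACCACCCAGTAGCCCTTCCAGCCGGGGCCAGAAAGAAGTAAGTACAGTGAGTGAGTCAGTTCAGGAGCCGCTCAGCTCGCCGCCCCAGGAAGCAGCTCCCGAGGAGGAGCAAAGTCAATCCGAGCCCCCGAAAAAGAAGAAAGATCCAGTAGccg

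The exons of 42, 54 and 294 nt have lengths that are multiples of 3 and add 14, 18 and 98 codons. The 59-nt exon is not a multiple of 3, so the annotated reading frame after it differs between Mybpc1-201 and Mybpc1-202.

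Near its 3′ end Myom1 has a pair of 23-nt coding exons, of which each annotated full-length coding transcript holds either the first or the second. They are shown without neighbouring bases, with capitals at the positions where they differ. They share 6 of 23 bases in place and differ at 17.
Myom1 first 23-nt exon (chr17:71120794-71120816, plus strand, exon 35 of 37 in Myom1-201): GAaGAGCCcACttgACACTGTTa
Myom1 second 23-nt exon (chr17:71121126-71121148, plus strand, exon 36 of 38 in Myom1-202): ACaAGCTGcCAttgCTGAAAAAa

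Mybpc1 was the highest of the 8 genes, followed in order by Myom1, Myom2, Mybpc2, Myom3, Mybph, Mybpc3 and Mybphl. The ranges of neighbouring genes over the 2 libraries did not overlap. The order was the same in the authors' second quantification, made directly from the reads (FASTQ-based), where 7 of 7 neighbouring pairs also kept separate ranges. In bulk tissue, fewer cells of a type and less RNA per cell cannot be told apart.

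Mybpc1 (chr10:88518279-88605152, minus strand) had 947.75 TPM in replicate 1 and 907.45 in replicate 2, from 83563 and 72848 counts. It ranked 29 and 30 among 22015 protein-coding genes outside the mitochondrial genome. Mybpc2 (chr7:44501699-44524656, minus strand) stood at 178.54 and 184.75 TPM, rank 304 in both libraries. The lower of the Mybpc1 values lay far above the higher of the Mybpc2 values.

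Mybph (chr1:134193448-134201232, plus strand) had 26.31 and 23.37 TPM, from 1353 and 1115 counts. The heart forms were close to the limit of detection. Mybpc3 (chr2:91118144-91136516, plus strand) had 11 counts in replicate 1 (95% Poisson interval 5.49 to 19.7) and 26 in replicate 2 (17.0 to 38.1), which are levels of 0.09 and 0.24 TPM. Mybphl (chr3:108364911-108380057, plus strand) had 1 count in replicate 1 and 0 in replicate 2, where a limit of 3 counts allows up to 0.0935 TPM. These intervals and limits cover counting error only.

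Of 8 heart muscle genes, Nppa and Nkx2-5 had 0 counts in both libraries, Nppb had 1 and 1, Myl7 had 1 and 0, and Tbx20 had 3 and 1. Tnni3, cardiac troponin I, had 19 counts in replicate 1 and 6 in replicate 2. Ryr2 had 106 and 118 counts. Myh6 stood at 48.19 and 60.36 TPM in the gene table but at only 20.77 and 26.73 TPM FASTQ-based. It lies beside the near-identical Myh7 and reads may be split between them, which was not tested. The summed gene table level of the heart list was 50.01 and 61.33 TPM, nearly all of it Myh6 and uncertain to the same degree.

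Among the myomesins, Myom1 (chr17:71002633-71126856, plus strand) stood at 373.77 and 346.44 TPM, ranks 116 and 134. Myom2 (chr8:15057653-15133541, plus strand) stood at 245.93 and 230.00 TPM, ranks 209 and 229. Myom3 (chr4:135759715-135815564, plus strand) was the lowest of them, at 43.74 and 47.77 TPM. Myom1 and Myom2 were lower in replicate 2 and Myom3 was higher there.

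**Figure D1:**
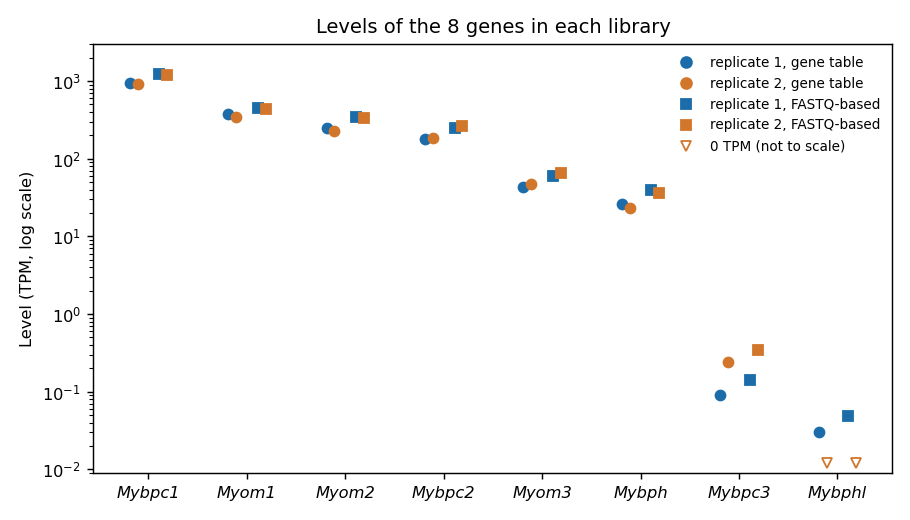
Level of each of the 8 genes (TPM, log axis) in replicates 1 and 2, from the gene table (circles) and the FASTQ-based quantification (squares); open triangles stand for 0 TPM and are not to scale. Mybpc1 is the highest gene by either quantification, and Mybpc3 and Mybphl lie below 1 TPM.

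TPM levels depended on the quantification. FASTQ-based levels were 1243 and 1196 TPM for Mybpc1, 250.8 and 263.4 for Mybpc2, 452.9 and 433.9 for Myom1 and 348.5 and 333.1 for Myom2. The ratio of FASTQ-based to gene table levels ran from 1.23 for Myom1 to 1.61 for Mybphl, beside a median of 1.601 over 11709 protein-coding genes that averaged at least 100 counts. The comparisons within families that follow do not depend on the scale of a whole library.

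The members shared little exact coding transcript sequence. Of 28 gene pairs, 0 had any 31-base word in common between their transcripts annotated as protein-coding, and noncoding models were not searched. Aligned coding sequences were 62.6% identical between Mybpc1 and Mybpc2, 74.0% between Mybph and Mybphl, and 62.6% between Myom1 and Myom2. Use of strand in the counting is not stated, and values of overlapping genes are therefore uncertain. Myl12a, a highly counted gene with 7433 and 6703 counts, overlaps the first 246 nt of the Myom1 locus on the opposite strand. Adora1 overlaps 2010 nt of Mybph on the opposite strand, with 34 and 35 counts. Gm26561, annotated on the same strand across all of Myom1, had 0 counts in both libraries.

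Within the myosin-binding family, which summed to 1153 and 1116 TPM, Mybpc1 held most of the RNA. Its share was 82.22% in replicate 1 and 81.33% in replicate 2 (81.77% ± 0.631). Mybpc2 held 15.49% and 16.56% (16.02% ± 0.756), and Mybph 2.282% and 2.094%. Mybpc3 and Mybphl together held under 1% of the family in each library.

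The myomesins summed to 663.4 and 624.2 TPM and were spread more evenly. Myom1 held 56.34% and 55.50% of this sum (55.92% ± 0.592), Myom2 37.07% and 36.85% (36.96% ± 0.157) and Myom3 6.593% and 7.653% (7.123% ± 0.750). Counting only transcripts annotated as protein-coding brought Myom1 and Myom2 closer, to 49.37% ± 0.810 and 43.65% ± 0.0998, with Myom1 still the higher in both libraries. The same restriction gave Mybpc1 78.82% and Mybpc2 18.62% of the myosin-binding sum.

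**Figure D2:**
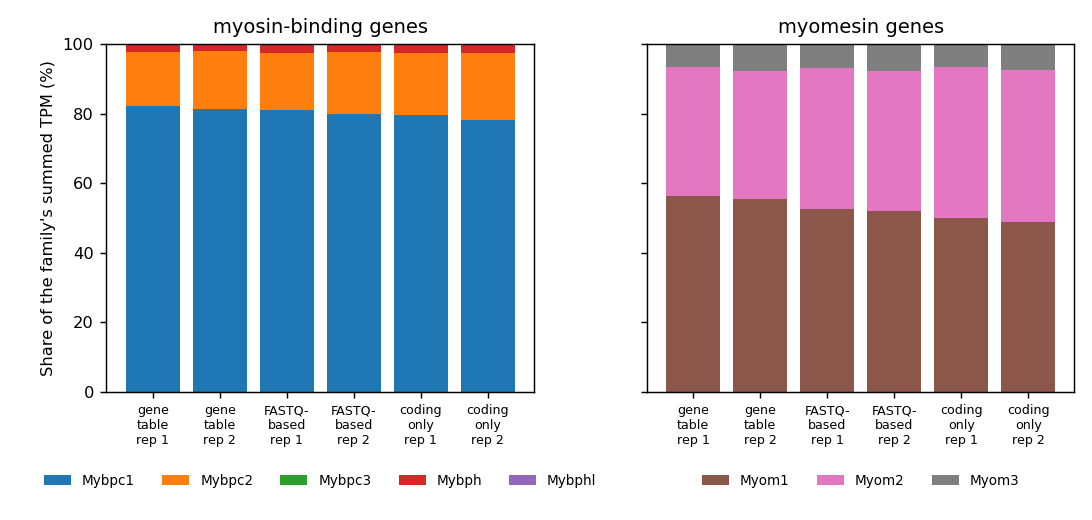
Share (percent) of each gene in the summed TPM of its family, for each library, from the gene table, the FASTQ-based quantification and protein-coding transcripts only. Mybpc1 takes 78.11% or more of the myosin-binding family in all 6 bars, while Myom1 takes between 48.79% and 56.34% of the myomesins; Mybpc3 and Mybphl are too small to be seen.

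Set against each other as log2 ratios of TPM plus 0.1, Mybpc2 stood below Mybpc1 by −2.41 in replicate 1 and −2.30 in replicate 2 (−2.35 ± 0.08), so the slow form was 5.10-fold higher. Mybph stood below Mybpc1 by −5.17 and −5.27. Myom1 was 1.51-fold above Myom2, with log2 ratios of 0.60 and 0.59. That gap was smaller in the FASTQ-based quantification, at 0.38 ± 0.00, and over protein-coding transcripts, at 0.18 ± 0.03. Myom2 was 5.19-fold above Myom3 (2.49 and 2.27 on the log2 scale), and Myom1 7.86-fold above it (3.09 and 2.86). In each of these pairs the difference was larger than the spread between the 2 libraries.

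The order within the C-protein pair was the opposite of that in 7 listed pairs of fast and slow muscle genes. In 7 of these 7 pairs the gene of the fast form was higher in both libraries, while Mybpc2, the fast form, was lower than Mybpc1 in both. Fast troponin I (Tnni2) was 22.4-fold above slow troponin I (Tnni1), with log2 ratios of 4.75 and 4.21. Fast troponin T (Tnnt3) was 19.3-fold above Tnnt1 (4.50 and 4.05), and fast troponin C (Tnnc2) 23.8-fold above Tnnc1 (4.82 and 4.34). The fast regulatory light chain Mylpf was 33.8-fold above Myl2 (5.19 and 4.97), or 21.1-fold FASTQ-based. The fast calcium pump Atp2a1 was 21.9-fold above Atp2a2 (4.66 and 4.24). The smallest gaps were 3.19-fold for the calsequestrins Casq1 over Casq2 (1.81 and 1.55) and 2.85-fold for the myosin heavy chains Myh4 over Myh7. FASTQ-based, the 7 pairs ran from 2.48-fold to 30.4-fold, all with the fast form higher. The heavy chains hold other fast genes, and these did not all follow Myh4. Myh2 (105.0 and 90.05 TPM) lay below Myh7 (206.3 and 246.9 TPM) in both libraries. Myh2 was also lower FASTQ-based, at 159.9 and 136.9 TPM beside 199.4 and 254.7 for Myh7. Myh1 (249.9 and 241.8 TPM) lay above Myh7 in replicate 1 and below it in replicate 2. FASTQ-based, Myh1 lay above Myh7 in both libraries, at 556.9 and 537.4 TPM, so its order depended on the quantification.

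The difference between the libraries also ran the other way in the C-protein pair. All 7 other ratios were lower in replicate 2, most of all Myh4 over Myh7 at 2.00 and 1.03 on the log2 scale, whereas Mybpc2 over Mybpc1 was slightly higher there. This is a description of 2 animals, and the difference between the pairs was not tested.

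**Figure D3:**
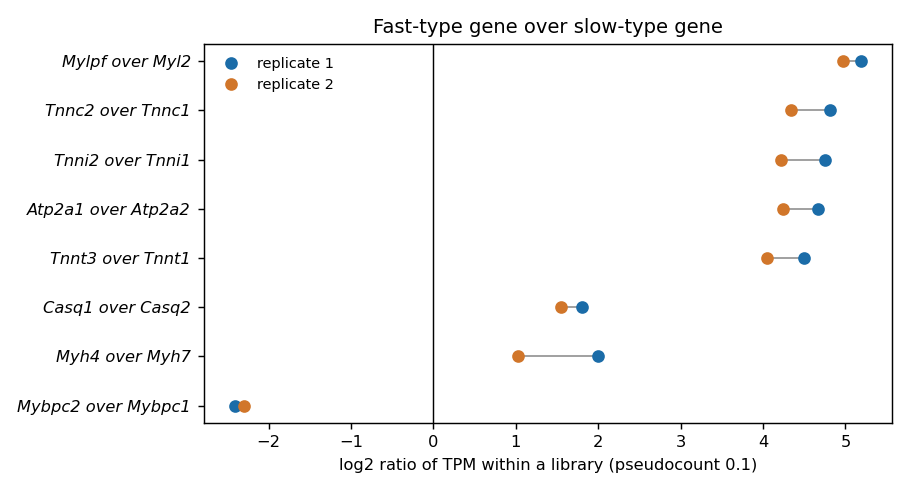
Log2 ratio of the fast-type over the slow-type gene (TPM plus 0.1) within replicate 1 (blue) and replicate 2 (orange) for 8 pairs. The Mybpc2 over Mybpc1 pair lies at −2.41 and −2.30, left of 0, and the other 7 pairs lie right of 0.

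The families were also set beside 6 sarcomeric myosin heavy chain genes (Myh8, Myh3, Myh4, Myh1, Myh2 and Myh7), the partner that C-protein binds. For each 100 of their transcripts by TPM there were 17.41 and 18.76 transcripts of Mybpc1 and Mybpc2 together, and 10.26 and 10.72 of the myomesins. Summed Mybpc1 and Mybpc2 stood 1.72-fold above the summed myomesins (0.76 and 0.81 on the log2 scale). Both ratios to myosin were higher in replicate 2. There the most abundant heavy chain gene, the perinatal Myh8 (4877 and 4482 TPM), and the fast 2B gene Myh4 (822.9 and 502.8 TPM) were lower. Myh1 and Myh2 were lower too, while Myh3 (207.9 and 258.4 TPM) and Myh7 (206.3 and 246.9 TPM) were higher. The part of each gene in the higher ratios was not tested.

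Each of the 6 members with more than 100 counts had a leading transcript that was the same in both libraries and by both quantifications. Mybpc2-201 held all of Mybpc2. Mybph-201 held 94.14% and 95.60% of Mybph, and Myom2-201 held 90.96% and 91.87% of Myom2. Myom3-201 held 76.05% and 75.74% of Myom3. For Mybpc3 the few counts were given to different transcripts in each library, so no transcript share can be read.

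Mybpc1 was divided among several coding transcripts. Mybpc1-202 held 54.78% and 52.77% of the gene, Mybpc1-201 held 17.23% and 17.05%, and the fragment Mybpc1-206 held 8.970% and 9.080%. FASTQ-based shares were 65.34% and 63.00% for Mybpc1-202, 18.50% and 19.09% for Mybpc1-201 and 14.14% and 15.46% for Mybpc1-206. Both quantifications therefore gave the same order, with libraries that lay close together.

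These shares give the use of the alternative exons, as the percent of TPM of the coding transcripts spanning an exon that include it. The 42-nt exon, which adds 14 codons near the start of the protein, was included in 76.07% and 75.58% (FASTQ-based 77.93% and 76.74%). The 59-nt exon near the 3′ end was included in 22.95% and 23.41%, close to the FASTQ-based 21.65% and 22.74%. The 54-nt exon lies only in Mybpc1-206 and was included in 11.08% and 11.50%, or 14.43% and 15.85% FASTQ-based. On counts not divided by length the 54-nt exon stood at 5.644%, since Mybpc1-206 is a short model. Mybpc1-201 and Mybpc1-202 differ in both the 42-nt and the 59-nt exon, so these 2 values are not independent of each other.

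Myom1-203, which lacks the 294-nt exon and holds the second 23-nt exon, was the leading Myom1 transcript, with 62.21% and 62.64% of the gene. The first 23-nt exon was included in 8.585% and 6.735% by alignment and in 20.35% and 20.52% FASTQ-based. The second 23-nt exon accordingly held 91.42% and 93.27%, or 79.65% and 79.48% FASTQ-based. The size of the minor form thus depended on the quantification by more than the spread between libraries, and the order of the exons did not.

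The 294-nt exon was mostly skipped. Myom1-202, the coding transcript that includes it, held 0.5160% and 1.117% of the spanning coding TPM, and 3.893% and 3.703% FASTQ-based. The authors' bounds for its level, whose confidence level is not stated, ran from 0.236 to 3.54 TPM in replicate 1 and from 0.921 to 4.32 TPM in replicate 2. Including the noncoding transcripts Myom1-204 and Myom1-205, which also hold the exon, gave 4.857% and 5.040% (FASTQ-based 6.959% and 6.946%). A myomesin form with an extra middle segment, known as EH-myomesin, is typical of the embryonic heart; whether this exon encodes that segment was not checked here.

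**Figure D4:**
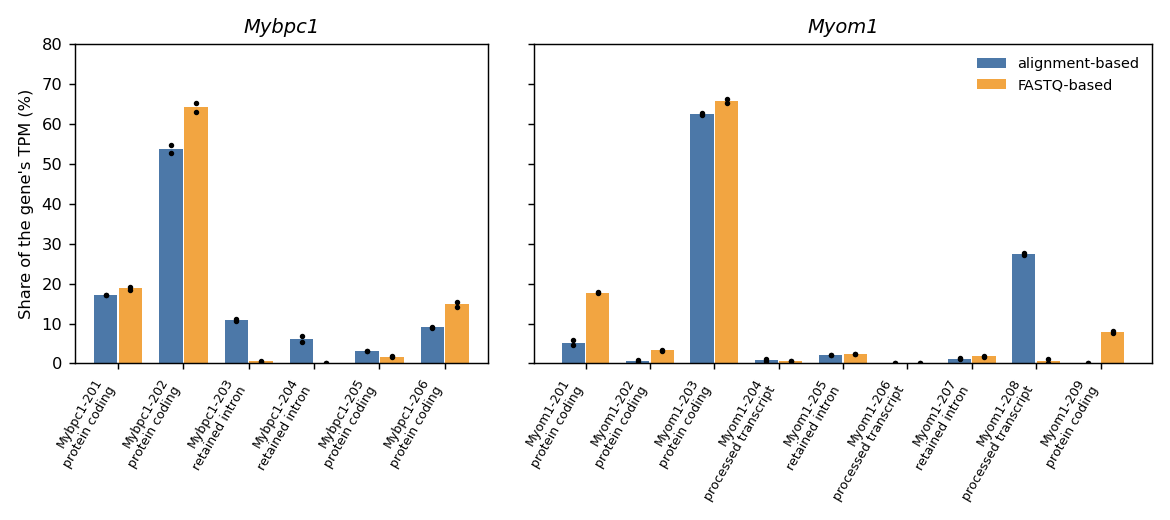
Share (percent) of each annotated transcript in the TPM of Mybpc1 (left) and Myom1 (right); bars are means of the alignment-based and FASTQ-based values and dots the 2 libraries. Mybpc1-202 and Myom1-203 lead by either quantification, while Myom1-208 holds 27.34% by alignment and 0.6355% FASTQ-based.

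The quantifications disagreed on several noncoding and coding models. Myom1-208, a processed transcript of 941 nt, held 27.08% and 27.61% of Myom1 by alignment but 0.04207% and 1.229% FASTQ-based, and 91.4% of its bases also lie in coding transcripts. Mybpc1-203, a retained intron model of 600 nt, held 10.64% and 11.17% by alignment and 0.4335% and 0.5790% FASTQ-based. Myom3-203, a retained intron model with 95.9% of its bases in the coding transcript, held 23.00% and 21.86%, beside 8.849% and 6.625%. The coding Myom3-201 stood at 75.89% by alignment and 89.81% FASTQ-based, and the coding Myom1-201 at 5.230% and 17.71%. Noncoding models together took 31.67% ± 0.363 of Myom1, 24.11% ± 0.218 of Myom3 and 17.01% ± 1.51 of Mybpc1 by alignment, but 5.384%, 10.19% and 0.5062% FASTQ-based. In the other direction, Myom1-209, which starts upstream in the stretch shared with Myl12a, held 0.1400% and 0.0900% by alignment and 8.127% and 7.743% FASTQ-based. The part of the Myl12a overlap in this value was not tested.

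The 2 libraries were compared as the log2 ratio of replicate 2 over replicate 1, on counts after TMM scaling, which takes most genes as unchanged. Of the 12421 genes that averaged at least 100 counts, 495 (3.99%) differed by more than 1.5-fold, 389 (3.13%) higher and 106 (0.853%) lower in replicate 2. Of the 8 members 6 had enough counts to enter, and 0 of these 6 passed 1.5-fold, which against a background of 3.99% says nothing particular about them. Their median absolute log2 ratio was 0.109, beside 0.125 over all genes entered.

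Mybpc1 differed by −0.12 (95% counting interval −0.13 to −0.10), Myom1 by −0.13 (−0.15 to −0.11) and Myom2 by −0.10 (−0.13 to −0.08). Mybph differed by −0.20 (−0.31 to −0.08). Mybpc2 differed by 0.03, with an interval that reached 0, and Myom3 by 0.10 (0.05 to 0.15), so these 2 lay on the other side. Directions were the same under all 3 other scalings tried and on FASTQ-based counts, but the sizes were not. Scaled by ERCC totals, Mybpc1 differed by −0.04, Myom1 by −0.05, Myom2 by −0.02, Mybph by −0.12, Mybpc2 by 0.11 and Myom3 by 0.18. The intervals cover counting error only, not the spread between animals. Mybpc3 and Mybphl lay below the count minimum, and Mybpc3 differed by 1.29 with a wide interval of 0.26 to 2.49.

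**Figure D5:**
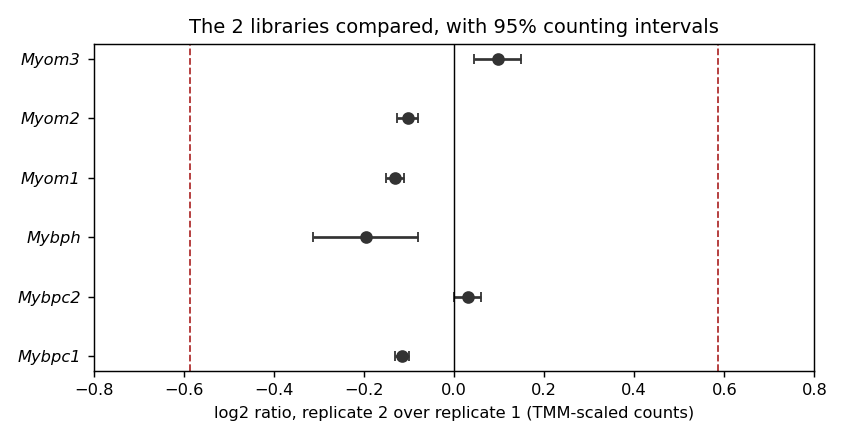
Log2 ratio of replicate 2 over replicate 1 (TMM-scaled counts) for the 6 members that averaged at least 100 counts, with 95% counting intervals; dashed lines mark 1.5-fold. All 6 lie between the dashed lines, with Mybpc1, Mybph, Myom1 and Myom2 left of 0.

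Transcripts of proteins that share the thick filament and the M-band with the members were present as well. All 11 thick filament genes and all 13 genes of a list of titin and M-band partners stood at 1 TPM or more in both libraries, with medians of 245.8 and 64.39 TPM. The share of all genes at this level is not given, so these counts say nothing particular about the lists. Titin (Ttn), which anchors myomesin in the M-band, stood at 1569 and 1603 TPM. Obsl1, which encodes a myomesin partner, had 86.75 and 76.48 TPM. Muscle creatine kinase (Ckm), an enzyme docked at the M-band, had 5096 and 4534 TPM. Lrrc39, which encodes the M-band protein myomasp, had only 15.75 and 14.65 TPM. In TPM, Myom1 and Myom2 thus lay below Ttn and above Obsl1, and Myom3 lay below Obsl1.

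Of the 11 thick filament genes 1 passed 1.5-fold between the libraries, Myh4 (−0.73 on the log2 scale). Of the 13 partner genes 1 passed, Trim63 (24.27 and 14.71 TPM), a ubiquitin ligase found at the M-band. The related ligases Trim54 and Trim55 had 65.27 and 50.71 TPM and 38.42 and 33.36 TPM. Fhl2 had 11.43 and 16.87 TPM and did not pass. The background for calls in either direction is 3.99% of genes.

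RefSeq windows (GRCm38.p6) from 250 bases before to 50 after the RefSeq gene start were matched for 7 of the 8 members, all except Myom2. For Myom1 the window is chr17:71019307-71019606, downstream of the start of the annotated locus at 71002633. The E-box CANNTG, bound by MyoD and its relatives among others, occurred on either strand in 7 of 7 windows, but also in 72.3% of all 32851 windows of this length. The MEF2 consensus occurred in 2 of 7, Mybpc3 at −90 and Myom3 at −35, beside 3.2% of all windows. The TATAA motif occurred in 1 of 7, at −38 in Mybph, beside 24.9% of all. Positions are counted from the RefSeq gene start. A match describes letters in a window and is not evidence of binding.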

How the data were processed

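Expected counts and TPM come from the authors' alignment-based gene and transcript tables, whose columns carry the names RSEM writes, per the file headers. The deposited TPM values were scaled over all entries, spike-ins included, and the share of each transcript in its gene, in percent, is also the authors' value. A second deposited table gives estimated counts and TPM made directly from reads, under the column names of kallisto, per the file headers. The build is mm10 with GENCODE M21, per the deposited notes; which aligner and program versions were used is not given in the sources used here. Reads of a hybrid were quantified against this 1 build.

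The 8 symbols were matched through the gene identifier of the transcript names. Left out were 96 ERCC controls and 26248 entries with a number in place of a gene name, which took 4 and 6 counts. All expected counts summed to 35512215 and 32507943, and estimated counts of the second table to 34695571 and 31725605. Ratios between libraries used expected counts plus a prior of 0.5 (rounding served only the scale and the intervals), on the TMM scale (trimmed mean of M-values) of edgeR 4.0.16 under R 4.3.3, and exact (Clopper-Pearson) 95% intervals; the procedure was tested on simulated data. Log2 ratios of TPM used a pseudocount of 0.1, which understates differences of low genes. Reads carry no molecular identifiers in these files. Other settings were DESeq2 1.42.0 size factors, total counts, ERCC totals, pseudocounts of 0.01 and 1, count minimums of 10 and none, FASTQ-based values, TPM rescaled to protein-coding genes, counts not divided by length, coding transcripts only, and leaving out each replicate. Named were all 8 members, leading transcripts and those with 10% or more of their gene in both libraries by either quantification, and other transcripts, exons and overlapping genes chosen after their values were seen. The level of 1 gene of the partner list is not reported here. The members and lists were chosen with earlier results of these data known.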

Additional observations from a re-analysis of the deposited data

How the results depend on the processing

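None of the log2 ratios counted below changed sign under the settings tried. Shares, levels, exon inclusion and gene counts carry no sign, so they could not reverse. Some transcripts did change order. Myom1-208 stood above Myom1-201 by alignment (27.34% beside 5.230%) and below it FASTQ-based (0.6355% beside 17.71%). Mybpc1-203 stood above Mybpc1-206 by alignment (10.91% beside 9.025%) and below it FASTQ-based (0.5062% beside 14.80%). Outside the results counted, Myh1 against Myh7 in replicate 2 changed order FASTQ-based (537.4 beside 254.7 TPM). Of the family shares of Mybpc1, Mybpc2 and the myomesins, the member ratios, exon inclusion and the count of genes past 1.5-fold, 37 values under another setting moved by more than 1 SD (the count by more than 1.5 times) and follow, while 61 did not. Of levels, transcript shares, ratios between libraries and the remaining results 60 moved, 24 of them FASTQ-based, and 94 did not. Of the 61 unmoved values, 17 left out replicate 1 and 17 left out replicate 2, and of the 94, 32 and 32 did. With 2 libraries, such a value always lies within 1 SD of the mean, so it could not move and says nothing about stability. Rescaling TPM to protein-coding genes moved Mybpc1 to 2221 TPM, and on counts the Mybph share was 1.263%. FASTQ-based, on counts not divided by length and over coding transcripts only, shares of the family were 80.51%, 80.19% and 78.82% for Mybpc1, 16.99%, 18.53% and 18.62% for Mybpc2, 52.37%, 51.33% and 49.37% for Myom1, and 40.25%, 40.79% and 43.65% for Myom2. Myom3 stood at 7.881% on counts. In the same order the log2 ratios were −2.25, −2.11 and −2.08 for Mybpc2 over Mybpc1, −5.01, −5.99 and −4.95 for Mybph over Mybpc1, and 0.38, 0.33 and 0.18 for Myom1 over Myom2. Over coding transcripts Myom2 over Myom3 was 2.64, and on counts Myom1 over Myom3 was 2.71. Summed Mybpc1 and Mybpc2 over the myomesins was 0.31 on counts and 0.93 over coding transcripts. FASTQ-based exon inclusion was 77.34%, 15.14% and 22.20% for the 42-, 54- and 59-nt exons of Mybpc1, and on counts the first and second of these were 76.65% and 5.644%. FASTQ-based inclusion was 3.798% for the Myom1 294-nt exon and 20.43% and 79.57% for the 23-nt exons, and the 294-nt exon stood at 4.948% with noncoding transcripts. Genes past 1.5-fold between the libraries numbered 2268 with a mean count of 10 or more and 9624 with no filter, beside 495. These looser filters let in more genes with low counts. The shares of genes entered are not given for them, so these numbers cannot be compared as rates. Causes of the moves were not tested. Leaving out pairs with a gene under 1 TPM removed 0 of 6 pairs. The ratios and levels over coding transcripts and, apart from leaving out a replicate, the alternatives for exon inclusion, fast and slow pairs and myosin heavy chains were chosen after seeing the data. With 2 libraries, leaving out 1 gives the value of the other. No paired analysis was possible because there is 1 group. Transcript shares are limited by overlapping models, and Mybpc3 and Mybphl by their counts.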
